A study of Mus musculus with 2 samples.

Results

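The γδ T cell receptor genes and their companions, 6 genes that mark γδ T cells, were followed through the kidney leukocytes of mice with nephrotoxic nephritis. The γδ T cell receptor is a pair of chains, δ and γ, each made of a rearranged variable part joined to a constant part, and it is carried on the cell surface by the CD3 chains in place of the αβ receptor. In mice, γδ T cells arise in waves that use different variable genes, and several tissues hold a γδ population that makes IL-17. *Trdc* encodes the δ constant region, and *Tcrg-C1* and *Tcrg-C2* encode γ constant regions. *Cd163l1* encodes Scart1, a scavenger receptor of γδ T cells, *Blk* encodes a Src family kinase of B cells and IL-17–producing γδ T cells, and *Sox13* encodes an HMG box transcription factor of the γδ lineage. The genes were taken by name, all 6 of 6 names were among the 20299 genes counted, and their unique molecular identifiers (UMIs, each standing for 1 captured RNA molecule) were summed by cluster and library.

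The data are 1 scRNA-seq library of *Vsir-/-* kidney and 1 of WT kidney, both from male mice on the C57BL/6 background at 8 weeks of age, and the number of animals behind each library is not given in the sources used here. *Vsir* encodes the immune checkpoint protein VISTA, and the *Vsir-/-* allele is a constitutive knockout. Both received 200 μg of sheep IgG in complete adjuvant and, 4 days later, 2 μl per g of body weight of sheep nephrotoxic serum as the labels give it (the study's methods state another dose), so nephritis is shared by both groups and no untreated kidney is included. The labels state a sort of CD45+ cells for the WT library and the inclusion of all kidney cells for the *Vsir-/-* library. The methods, however, describe 1 sort of CD45+ cells without separating the libraries. The genotype and the sort therefore cannot be told apart, in the shares of cells or in the ratios between libraries. With 1 library per genotype there was no replicate and no test, and all intervals given here are at the 95% level and cover counting error only.

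The WT library held 5470 cells and 32799550 UMIs, and the *Vsir-/-* library held 1844 cells and 18601189 UMIs. *Vsir* itself had 4278 UMIs in WT and 8 UMIs in *Vsir-/-*, although the 3′ tags may lie outside the deleted part. The libraries shared 5 barcode sequences. Clusters carry the authors' names, and 10 of the 16 are lymphoid. The cluster named γδ T held 46 WT cells and 28 *Vsir-/-* cells, with medians of 5378 and 6263 UMIs per cell, and every cell had a T cell transcript, here a UMI of a T cell receptor constant gene or of *Cd3d*, *Cd3e*, or *Cd3g*. Tubule transcripts were higher in *Vsir-/-* in each of the 8 lymphoid clusters compared. In the γδ T cluster 20 tubule genes summed to 103 CPM in the WT library and to 2076 CPM in the *Vsir-/-* library, where CPM are counts per 1000000 UMIs of the same cells. Of the tubule genes *Lrp2*, *Slc34a1*, *Miox*, and *Umod*, all were at 0 UMIs in the WT γδ T cells.

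The γ constant genes are close copies, which bears on how their counts can be read. They differ in length in the short middle exons, which encode part of the connecting peptide between the constant domain and the membrane. These exons are shown because their length sets *Tcrg-C2* apart from *Tcrg-C1* and *Tcrg-C3*, whose exons are equally long and differ by 1 base, with the bases that *Tcrg-C1* and *Tcrg-C3* share and *Tcrg-C2* lacks in capitals (GENCODE M21 transcripts, GRCm38, written 5′ to 3′ along the gene).

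Tcrg-C1 exon 2, chr13:19215864-19215908, plus strand: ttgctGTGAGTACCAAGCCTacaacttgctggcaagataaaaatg
Tcrg-C3 exon 2, chr13:19262644-19262688, plus strand: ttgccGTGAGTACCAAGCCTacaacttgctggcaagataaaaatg
Tcrg-C2 exon 2, chr13:19305769-19305798, minus strand: ttgctacaacttgctggcaagataaaaatg
Tcrg-C4 exon 2, chr13:19349536-19349589, plus strand: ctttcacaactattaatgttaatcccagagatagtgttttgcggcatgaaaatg
Tcrg-C4 exon 3, chr13:19350330-19350374, plus strand: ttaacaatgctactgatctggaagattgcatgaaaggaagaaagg

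The *Tcrg-C1* exon is 45 bases long and the *Tcrg-C2* exon is 30, the difference being 1 run of 15 bases. *Tcrg-C4* has 99 bases in 2 exons with another sequence. Across whole transcripts, *Tcrg-C1* and *Tcrg-C2* were 96.2% identical over 909 aligned bases, and *Tcrg-C1* and *Tcrg-C4* 72.4% over 896. Of the 825 windows of 100 bases in the *Tcrg-C1* transcript, 5 were found unchanged in *Tcrg-C2*, 63 in *Tcrg-C3*, and 0 in *Tcrg-C4*. These counts can understate what reads share, because the study's reads were shorter than 100 bases. The annotated *Tcrg-C3* transcript also ends early, with a last exon of 143 bases against 549 in *Tcrg-C1*. *Tcrg-C3* was not among the genes counted, and how reads shared by these copies were assigned was not tested, so the split between *Tcrg-C1* and *Tcrg-C2* is uncertain. The submitters' processing notes list mm9 and the counts carry no coordinates, so these positions apply only to the sequences shown.

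*Trdc* was highest in the γδ T cluster of both libraries and next highest in the effector memory–like (EM-like) CD8+ T cells. In WT, *Trdc* had 235 UMIs in 46 γδ T cells, or 837 CPM (Poisson interval, 734 to 952), and 321 UMIs in 197 EM-like CD8+ T cells, or 390 CPM (348 to 435). It followed at 102 CPM in the cluster named NKT, 82.1 CPM in EM-like CD4+ T cells, 59.6 CPM in NK cells, and 41.3 CPM in proliferating cells. The cluster named NKT had 0 *Vsir-/-* cells, and B cell genes were common in it, as given below. Of the neighbors in this order, the NKT and EM-like CD4+ clusters did not differ beyond their counting intervals, and the other neighbors did. However, 42 of the 230 EM-like CD4+ UMIs came from 1 cell, so the place of that cluster above NK cells is not set. In *Vsir-/-*, *Trdc* had 379 UMIs in 28 γδ T cells, or 2138 CPM (1928 to 2365), and 37 UMIs in 28 EM-like CD8+ T cells, or 223 CPM (157 to 307). NK cells (27.6 CPM), proliferating cells (27.4 CPM), and EM-like CD4+ T cells (22.2 CPM) came next and could not be ordered by their intervals.

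Most WT *Trdc* UMIs lay outside the γδ T cluster. That cluster held 17.6% of the 1337 *Trdc* UMIs of the WT library (Clopper-Pearson interval, 15.6% to 19.7%), against 24.0% in EM-like CD8+ T cells, 17.2% in the EM-like CD4+ cluster, and 16.8% in NK cells. In *Vsir-/-* it held 62.6% of 605 UMIs. Without the *Vsir-/-* cell with most *Trdc* UMIs, described below, the share was 76.6%.

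**Figure D1:**
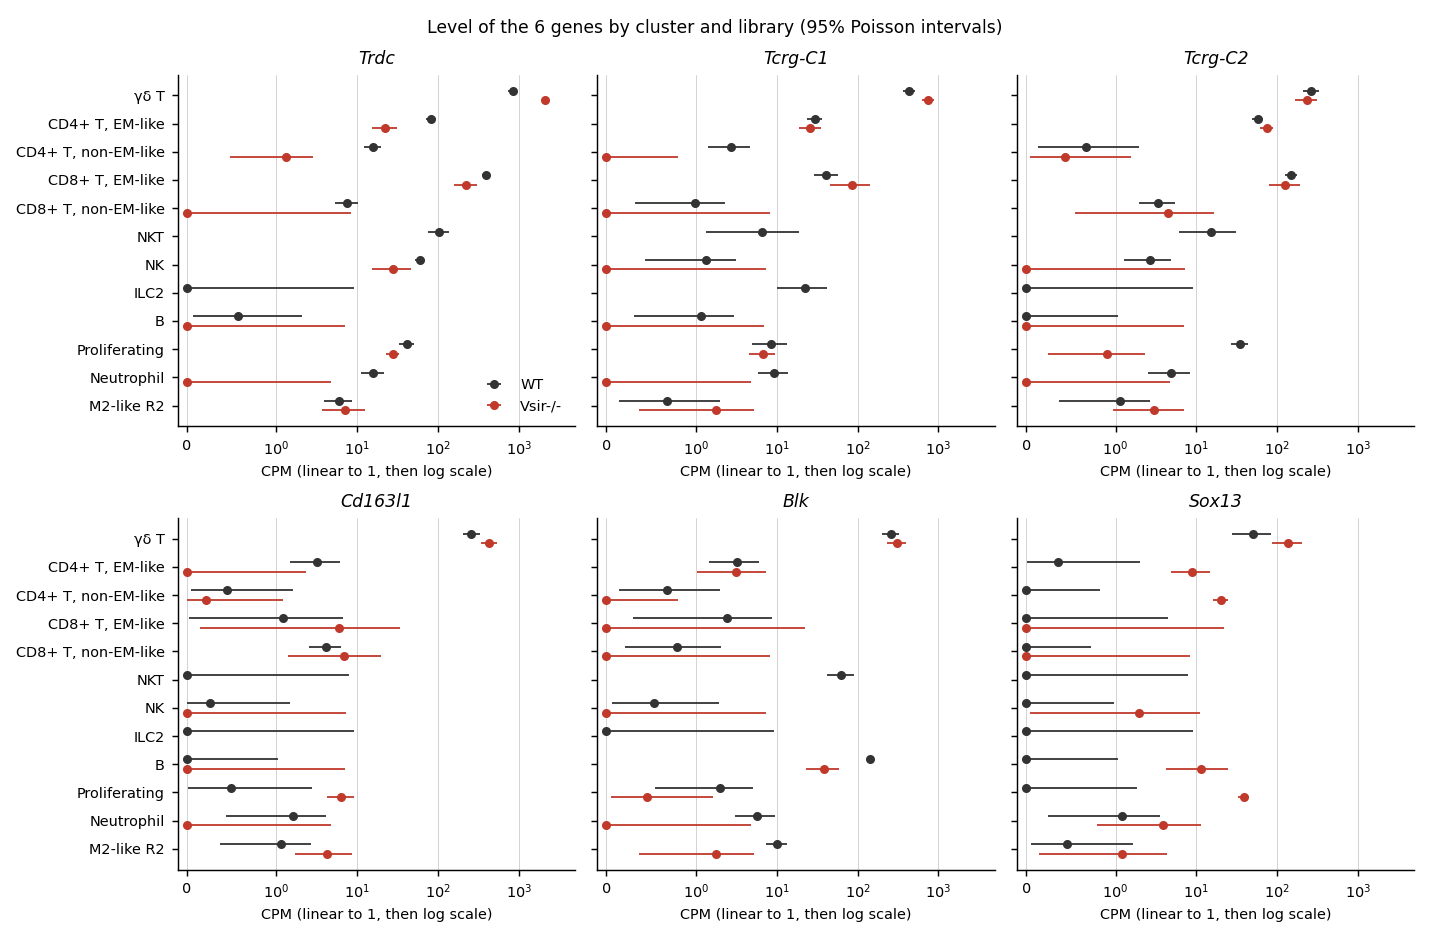
Level of each gene (CPM, linear to 1 and then on a log scale) in lymphoid clusters, neutrophils, and M2-like R2 macrophages, with 95% Poisson intervals, in WT (dark) and *Vsir-/-* (red) libraries with at least 20 cells in the cluster. *Trdc* stood at 837 and 2138 CPM in γδ T cells and had a broad tail across T and NK clusters, whereas *Sox13* outside γδ T cells appeared mainly in *Vsir-/-* clusters.

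The γ constant genes followed the same top order with a different mix. *Tcrg-C1* had 122 UMIs in WT γδ T cells (435 CPM) and 133 UMIs in *Vsir-/-* γδ T cells (750 CPM), against 41.3 and 84.3 CPM in the EM-like CD8+ cluster and 29.6 and 26.0 CPM in the EM-like CD4+ cluster. *Tcrg-C2* had 74 UMIs in WT γδ T cells (264 CPM) and 41 UMIs in *Vsir-/-* γδ T cells (231 CPM), against 149 and 127 CPM in the EM-like CD8+ cluster and 57.4 and 74.8 CPM in the EM-like CD4+ cluster. Both genes were highest in the γδ T cluster, and in WT *Tcrg-C1* did not differ beyond its interval between the EM-like clusters, whereas *Tcrg-C2* did. *Tcrg-C4*, the fourth γ constant gene, had 153 and 231 CPM in γδ T cells.

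The mix of the counted γ constant genes, given as shares of UMIs of 3′ tags and not scaled by length, was compared between clusters. In γδ T cells, *Tcrg-C1* gave 51.0% of the γ constant UMIs in WT (44.5% to 57.6%) and 61.9% in *Vsir-/-* (55.01% to 68.4%). In EM-like CD8+ T cells it gave 13.6% of 250 UMIs in WT (9.61% to 18.5%) and 36.8% of 38 in *Vsir-/-* (21.8% to 54.0%), and *Tcrg-C2* gave 49.2% and 55.3%. In the EM-like CD4+ cluster, *Tcrg-C4* gave 55.1% of 544 UMIs in WT and 33.5% of 239 UMIs in *Vsir-/-*, and *Tcrg-C2* gave 29.6% and 49.4%. *Tcrg-C4* gave 89.1% of 137 γ constant UMIs in WT NK cells and 85.0% of 60 in WT group 2 innate lymphoid cells (ILC2s). UMIs of 1 cell are not independent of each other, so these intervals are too narrow for a difference between cells.

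*Cd163l1*, *Blk*, and *Sox13* were each highest in the γδ T cluster of both libraries but differed in what came second. *Cd163l1* had 73 UMIs in WT (260 CPM) and 77 UMIs in *Vsir-/-* (434 CPM), with no other lymphoid cluster above 6.79 CPM. The WT runner-up was the non-EM-like CD8+ cluster at 4.15 CPM, where 13 of 659 cells had a UMI. All 13 of those cells had *Cd8a* or *Cd8b1* and *Trac* UMIs, and 0 had *Trdc* or a γ constant gene.

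*Blk* had 72 UMIs in WT γδ T cells (256 CPM) and 54 in *Vsir-/-* γδ T cells (305 CPM), followed by B cells at 143 CPM in WT and 38.1 CPM in *Vsir-/-*. Because WT B cells were numerous, they held 65.9% of the 756 WT *Blk* UMIs, and γδ T cells held 9.52%. WT *Blk* also reached 62.9 CPM in the NKT cluster, where 20 of 94 cells held it. Those 20 cells had a median of 8700 UMIs against 1508 in the other 74, and the B cell genes *Cd79b* and *Ighm* were each found in 17 of the 20, against 41 and 42 of the 74. In WT γδ T cells, *Cd79b* had 30 UMIs in 20 of 46 cells and *Ighm* 34 UMIs in 14, while *Cd79a*, *Pax5*, and *Ms4a1* had 7, 6, and 1 UMIs, each in 1 cell. In *Vsir-/-* γδ T cells, *Cd79b* had 23 UMIs in 11 of 28 cells, *Ighm* had 5 in 4, and *Cd79a*, *Pax5*, and *Ms4a1* had 0. *Cd79b* was found in 16 of 35 WT γδ T cells with *Blk* and 4 of 11 without it, and *Ighm* in 12 and 2. The part of B cell RNA in these values was not tested.

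*Sox13* had 14 UMIs in WT γδ T cells (49.9 CPM) and 24 in *Vsir-/-* γδ T cells (135 CPM). The WT library had 20 *Sox13* UMIs in all, 14 of them in the γδ T cluster. The *Vsir-/-* library had 328, of which 172 lay in the proliferating cluster and 92 among non-EM-like CD4+ T cells. Of 54 proliferating *Vsir-/-* cells with *Sox13*, 14 had a T cell transcript and 13 had *Ptprc*, which encodes CD45, against 52 and 57 of the 135 without *Sox13*. Of 43 *Vsir-/-* cells with *Sox13* among the non-EM-like CD4+ T cells, 14 had a T cell transcript and 10 had *Ptprc*, against 103 and 96 of the 306 without *Sox13*. Of the 16 *Vsir-/-* γδ T cells with *Sox13*, all 16 had a T cell transcript and 15 had *Ptprc*. Those 43 cells had a median of 26884 UMIs and 4123 CPM of the tubule list, and the others in that cluster had 7058 UMIs and 20662 CPM.

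Cell by cell, the γδ T cluster was not uniform. WT cells had a median of 4 *Trdc* UMIs (range, 0 to 40) and *Vsir-/-* cells a median of 12 (0 to 47). In WT, 30 of 46 cells held a *Trdc* UMI, or 65.2% (49.8% to 78.6%). In *Vsir-/-* it was 26 of 28, or 92.9% (76.5% to 99.1%). With every cell thinned to 1000 UMIs the shares were 47.8% and 60.7%. In WT neutrophils, which should lack the gene, 1.91% of cells had a *Trdc* UMI at a median of 3565 UMIs per cell, and in WT M2-like R2 macrophages 4.39% at a median of 9699. In *Vsir-/-* neutrophils it was 0 of 158, a count that allows at most 1.90%.

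The other members were found in fewer or in more of these cells than *Trdc*. *Tcrg-C1* was seen in 87.0% of WT and 89.3% of *Vsir-/-* γδ T cells, *Tcrg-C2* in 63.0% and 46.4%, and *Blk* in 76.1% and 67.9%. *Cd163l1* was seen in 12 WT γδ T cells (26.1%) and 16 *Vsir-/-* γδ T cells (57.1%), and *Sox13* in 11 (23.9%) and 16 (57.1%). *Cd163l1* was concentrated in few cells, since 3 WT cells held 34 of its 73 UMIs. The median cell had UMIs of 3.5 of the 6 genes in WT and 5 of the 6 in *Vsir-/-*, and all 6 were found in 3 cells of each library.

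**Figure D2:**
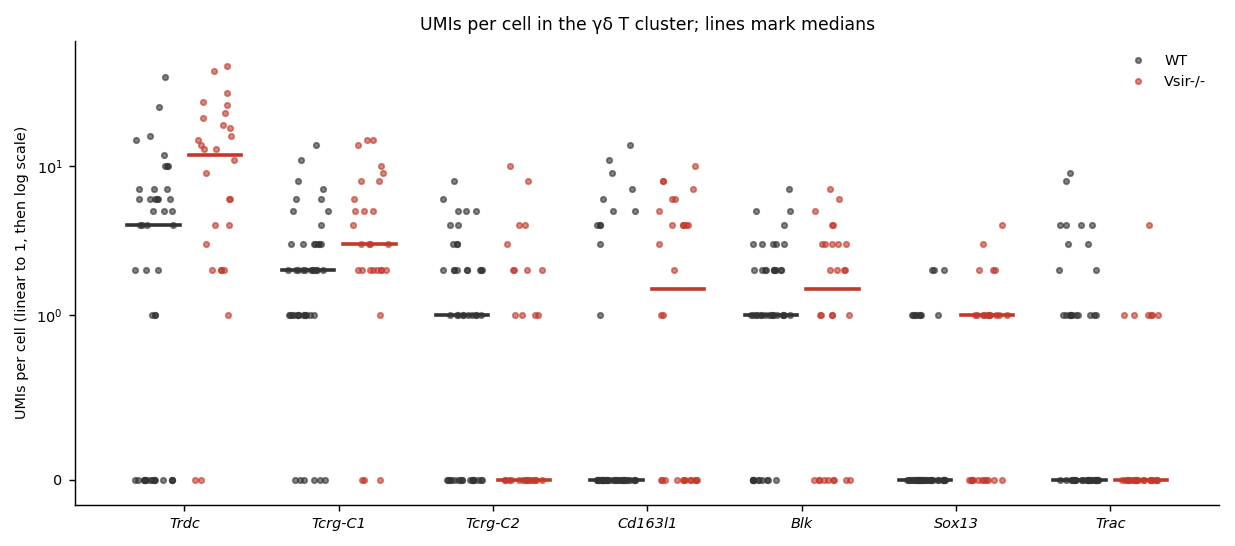
UMIs per cell (linear to 1, then log scale) of the 6 genes and *Trac* in the γδ T cluster, with 46 WT cells (dark) and 28 *Vsir-/-* cells (red), points spread sideways for legibility and lines at the medians. The *Trdc* median was 4 in WT and 12 in *Vsir-/-*, with 16 WT cells and 2 *Vsir-/-* cells at 0.

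The 16 WT cells of the cluster without a *Trdc* UMI were deeper than the 30 with one, at a median of 7831 against 5012 UMIs per cell. They had 0 *Sox13* UMIs and 1 *Cd163l1* UMI, against 14 and 72 in the cells with *Trdc*. *Trac*, the α constant gene, was found in 10 of the 16 and in 11 of the 30, at 291 CPM (203 to 405) and 118 CPM (71.3 to 185). *Cd247*, which encodes the CD3ζ chain, stood at 33.3 CPM in the cells without *Trdc* and 455 CPM in those with it. *Tcrg-C1* was in 14 of 16 (87.5%) and 26 of 30 (86.7%) cells, and *Blk* in 10 and 25. Thus *Tcrg-C1* did not separate these cells, whereas *Cd163l1*, *Sox13*, and *Cd247* lay almost wholly on the side with *Trdc*. Because *Trdc* chose the sides, this is a description.

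Transcripts of αβ constant genes were common in the cluster. *Trbc2* was found in 44 of the 46 WT and 27 of the 28 *Vsir-/-* γδ T cells, and *Trbc1* in 28 and 22. *Trac* had 54 UMIs in WT (192 CPM) and 10 in *Vsir-/-* (56.4 CPM), a log2 ratio of −1.71 (−2.91 to −0.78). The other CD3 genes, *Cd3d*, *Cd3e*, and *Cd3g*, and both β constant genes had log2 ratios between −0.26 and 0.31. *Cd247* had 77 and 71 UMIs, a log2 ratio of 0.55 (0.06 to 1.03).

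In the γδ T cluster, 2 of the 6 genes were past 2-fold between the libraries, *Trdc* and *Sox13*, both higher in *Vsir-/-*. Over the 3379 genes with at least 20 UMIs in this cluster, 12.6% were past 2-fold in either direction. *Trdc* had a log2 ratio of *Vsir-/-* over WT CPM of 1.35 (exact conditional interval, 1.11 to 1.59), and *Sox13* of 1.42 (0.43 to 2.51). *Tcrg-C1* (0.79; 0.42 to 1.15) and *Cd163l1* (0.74; 0.26 to 1.22) had intervals above 0, and those of *Tcrg-C2* (−0.18; −0.78 to 0.38) and *Blk* (0.25; −0.29 to 0.78) spanned 0. Restricted to cells with a *Trdc* UMI, the log2 ratio was 0.64 for *Trdc* and 0.71 for *Sox13*, both then within 2-fold, and 0.049 for *Cd163l1*. The tubule list stood at 103 and 2076 CPM in the same cells, and its part in these ratios was not tested.

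**Figure D3:**
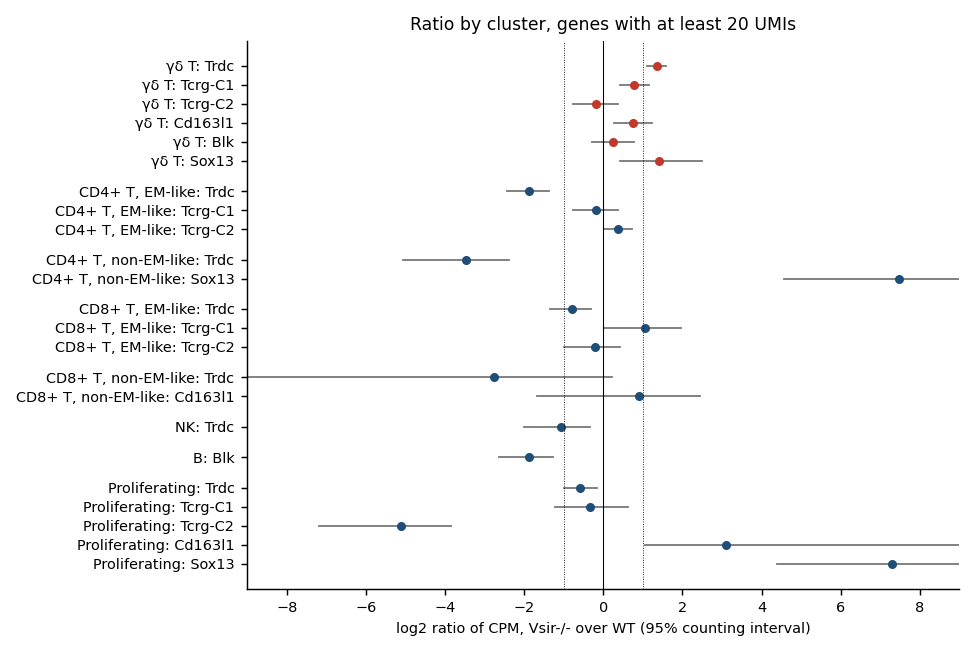
Log2 ratio of CPM, *Vsir-/-* over WT, for each gene with at least 20 UMIs in a lymphoid cluster, with exact 95% counting intervals (cut at the axis ends) and dotted lines at 2-fold. In γδ T cells *Trdc* (1.35) and *Sox13* (1.42) lay beyond the 2-fold line, while the *Trdc* ratio was below 0 in each of the other clusters in which it is shown. In NK cells 3 of the 4 CD3 genes, not shown, were lower past 2-fold as well (median log2 ratio of the 4, −2.59).

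Over all cells of a cluster, *Trdc* ratios were below 0 in the other clusters in which it reached 20 UMIs, although in the proliferating cluster the sign turned among cells with a T cell transcript (log2 ratio, 1.01). A T cell transcript was found in 27.1% of WT and 5.06% of *Vsir-/-* neutrophils, so the libraries also differed where such transcripts should be lacking. The part of this in the ratios was not tested. In EM-like CD4+ T cells *Trdc* had 230 UMIs in WT (82.1 CPM) and 35 in *Vsir-/-* (22.2 CPM), a log2 ratio of −1.87 (−2.44 to −1.37), while *Tcrg-C1* (−0.18) and *Tcrg-C2* (0.38) were within 2-fold. There 15.8% of all genes were past 2-fold. In the EM-like CD8+ cluster, where 16% of genes were, the *Trdc* log2 ratio was −0.79 (−1.34 to −0.31), and −1.22 without the cell of each library with most *Trdc* UMIs. The NK cell genes *Klrb1c* or *Ncr1* were found in 29 of 46 WT cells of this cluster with *Trdc* and 99 of 151 without it. In *Vsir-/-* they were found in 2 of 6 and 2 of 22, so the cluster differed in make-up between the libraries. The part of this in its ratios was not tested. *Tcrg-C1* was past 2-fold there (1.06; 0.02 to 1.97), on 34 and 14 UMIs. Of the 14 *Vsir-/-* UMIs, 7 came from 1 cell, and the log2 ratio was 0.20 without the top cells. In NK cells, where 16.9% of genes were past 2-fold, the *Trdc* log2 ratio was −1.06 (−2.00 to −0.33). A lower level in *Vsir-/-* was not particular to *Trdc* there. Of the 4 CD3 genes, 3 were lower past 2-fold (median log2 ratio of the 4, −2.59), and of the 3 αβ constant genes, 2 were (median, −1.42). The same medians were 0.095 and −0.15 in the EM-like CD4+ cluster and −0.35 and 0.036 in the EM-like CD8+ cluster. In the EM-like CD4+ cluster the NK cell genes *Ncr1*, *Klrb1c*, *Eomes*, *Klra8*, *Gzma*, and *Prf1* summed to 824.5 CPM in WT and 187 CPM in *Vsir-/-*. That cluster thus also differed in make-up between the libraries, and the part of this in its ratios was not tested.

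In the remaining clusters fewer members reached 20 UMIs. In non-EM-like CD4+ T cells, where 58.5% of genes were past 2-fold and the median gene had a log2 ratio of 0.91, *Trdc* had 69 UMIs in WT and 6 in *Vsir-/-* (log2 ratio, −3.46). A T cell transcript was found in 100% of the WT cells of that cluster and 33.5% of the *Vsir-/-* cells, and among those the *Trdc* log2 ratio was −1.57. *Sox13* had 0 and 92 UMIs there, at least 29.7-fold higher in *Vsir-/-* against the limit of 3 counts over the WT cluster. In non-EM-like CD8+ T cells (20.8% of genes past 2-fold), *Trdc* had 38 UMIs in 13 WT cells and 0 in *Vsir-/-*. Of the 38 UMIs, 14 came from 1 cell. Against 3 counts the level was 1.11-fold lower, which leaves out the counting error of the 38 UMIs. No difference is read from it. *Cd163l1* had 21 and 3 UMIs (log2 ratio, 0.90; −1.68 to 2.45). In B cells (32.3% past 2-fold), *Blk* had 498 UMIs in WT and 20 in *Vsir-/-*, a log2 ratio of −1.87 (−2.63 to −1.27). The tubule list stood at 439 and 6692 CPM in the same cells, and its part in this ratio was not tested.

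The proliferating cluster showed how few cells can set a sum. There 3 of the 5 members with at least 20 UMIs and 46.5% of all genes were past 2-fold, the median gene had a log2 ratio of 0.51, and 97.5% of WT but 34.9% of *Vsir-/-* cells had a T cell transcript. *Trdc* had 83 UMIs in 23 WT cells and 122 UMIs in 7 *Vsir-/-* cells. Of those 122 UMIs, 110 came from 1 cell with 25523 UMIs, and this cell also held 24 of the 28 *Cd163l1* UMIs, 14 *Tcrg-C1* UMIs, 24 *Top2a* UMIs, and 0 *Trac* UMIs. Without the top cell of each library, the *Trdc* log2 ratio moved from −0.59 to −3.44, and among cells with a T cell transcript it was 1.01. *Tcrg-C2* had 70 UMIs in 17 WT cells and 4 UMIs in 2 *Vsir-/-* cells (log2 ratio, −5.11; −7.19 to −3.85), and *Tcrg-C1* had 17 and 30 (−0.34, or 1.26 among cells with a T cell transcript). *Cd163l1* (log2 ratio, 3.10; 1.07 to 9.02) rested on 1 WT UMI, and *Sox13* had 0 and 172 UMIs, at least 25.9-fold higher against 3 counts.

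Cells that held a *Trdc* UMI together with a γ constant UMI were not limited to the γδ T cluster. In WT, 29 of 46 γδ T cells had both, as did 114 of 4094 other lymphoid cells, among them 39 EM-like CD4+, 34 EM-like CD8+, 21 NK, and 10 proliferating cells. In *Vsir-/-*, 25 of 28 γδ T cells and 16 of 1034 other lymphoid cells had both. As a share, this was 17.3% of the WT EM-like CD8+ cluster (12.3% to 23.3%) and 17.9% of *Vsir-/-* ones (6.06% to 36.9%), against 1.34% of WT neutrophils. In the EM-like CD4+ cluster it was 7.98% in WT (5.73% to 10.7%) and 2.46% in *Vsir-/-* (0.908% to 5.28%). Requiring 0 *Trac* UMIs left 23 EM-like CD8+ and 26 EM-like CD4+ cells in WT, and 19 γδ T cells in each library.

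The *Trdc* content of these cells differed by cluster. Among WT EM-like CD8+ T cells with *Trdc*, the median was 6 UMIs, as in WT γδ T cells with *Trdc*, and 31 of 46 had 5 or more. Among WT NK cells with *Trdc*, the median was 1 UMI, 109 of 155 had exactly 1, and 2 had 5 or more. In the EM-like CD8+ cells with *Trdc*, *Trac* was found in 18 of 46 cells, against 132 of 151 cells without *Trdc*, and *Cd8a* or *Cd8b1* in 17 of 46 against 87 of 151. In EM-like CD4+ cells, *Trac* was found in 16 of 50 cells with *Trdc* and 301 of 439 without it. *Cd4* was found in 6 of these 50 and 96 of these 439 cells, and in *Vsir-/-* in 0 of 7 and 79 of 237. Thus cells with *Trdc* in both clusters carried *Trac* in a smaller share. The same was seen in *Vsir-/-*, with 2 of 6 against 21 of 22 EM-like CD8+ cells, and 3 of 7 against 210 of 237 EM-like CD4+ cells.

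**Figure D4:**
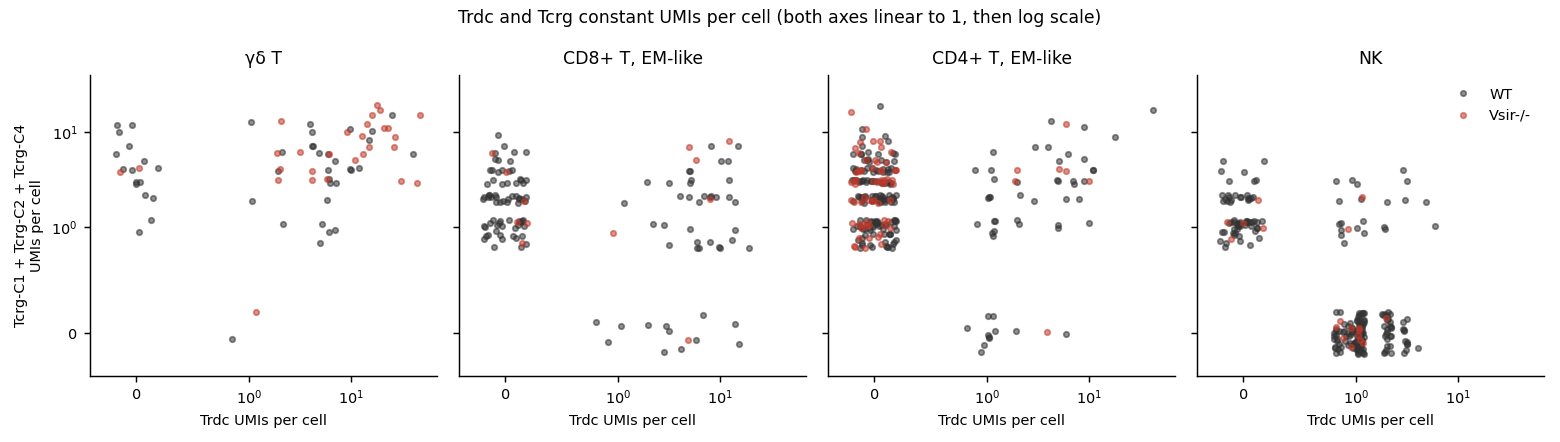
UMIs per cell of *Trdc* (x axis) and of the 3 counted γ constant genes together (y axis), both linear to 1 and then log, in 4 clusters, for γδ T cells in full and otherwise for cells with at least 1 of these UMIs, points spread slightly. WT cells are dark and *Vsir-/-* cells red, and most NK cells with *Trdc* lay at 1 *Trdc* UMI and 0 γ constant UMIs.

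In NK cells, *Trdc* was found mostly without a γ constant gene, which was present in 21 of 155 WT cells with *Trdc* and 63 of 439 without it. A *Trdc* UMI was present in 155 of 594 WT NK cells, or 26.1% (22.6% to 29.8%), and in 13 of 67 *Vsir-/-* NK cells, or 19.4% (10.8% to 30.9%). With cells thinned to 1000 UMIs the shares were 7.24% of WT and 0 of 67 *Vsir-/-* NK cells, against 0.795% of WT neutrophils. The *Vsir-/-* NK cells held 14 *Trdc* UMIs before thinning, so few could remain and no difference is read from the 0. *Tcrg-C1* had 5 and *Tcrg-C2* 10 UMIs in all WT NK cells, and neither had a UMI in *Vsir-/-* NK cells, while *Cd163l1*, *Blk*, and *Sox13* had 1, 2, and 0 in WT. *Ncr1*, the NK cell receptor gene, was found in 148 of 155 WT NK cells with *Trdc* and 402 of 439 without it. A *Cd3d*, *Cd3e*, or *Cd3g* UMI was found in 45 (29.0%) and 125 (28.5%) of them. Among 79 WT ILC2s, 0 had *Trdc*, a count that allows at most 3.80%, and 22 had *Tcrg-C4*.

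Variable gene transcripts were sparse, with 8 γδ variable genes counted and 2 of them, *Trdv4* and *Trgv2*, past 20 UMIs in the γδ T cluster. *Trdv4* had 16 UMIs in 6 WT γδ T cells and 37 UMIs in 11 *Vsir-/-* γδ T cells, a log2 ratio of 1.85 (0.99 to 2.82), and all 17 of these cells had *Trdc*. *Tcrg-V6* had 3 UMIs in 3 WT cells and 12 UMIs in 8 *Vsir-/-* cells (log2 ratio, 2.50; 0.77 to 5.13). *Trdv5* had 11 UMIs in 9 WT cells, all with *Trdc*, and 0 in *Vsir-/-*, which is 2.32-fold lower against 3 counts. Such absence was not particular to this cluster. Over all cells, *Trdv5* had 19 UMIs in WT and 0 in *Vsir-/-*, *Trdv2-2* 124 and 0, and *Trdv1* 9 and 0. *Trdv4* had 135 and 62. The cause was not tested. *Trgv2* had 47 UMIs in 21 WT cells and 22 UMIs in 13 *Vsir-/-* cells (log2 ratio, −0.41; −1.23 to 0.33). Outside the cluster, *Trgv2* was found in 50 WT EM-like CD8+ and 59 WT EM-like CD4+ T cells, of which 16 and 21 had *Trdc*. WT NK cells held *Trdv2-2* in 55 cells and *Trdv4* in 52, of which 15 and 13 had *Trdc*, and ILC2s held *Trdv4* in 16 cells, of which 0 had *Trdc*.

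Of a 26-gene list of the IL-17–producing γδ program, 21 genes passed 20 UMIs in the γδ T cluster, with 1 higher and 2 lower past 2-fold in *Vsir-/-*, beside 12.6% of all genes past 2-fold in this cluster, and a median log2 ratio of 0.20, against −0.0011 over all 3379 genes. The gene that was higher was *Il17a*, with 123 UMIs in 12 WT cells and 259 UMIs in 21 *Vsir-/-* cells (438 and 1461 CPM, log2 ratio, 1.73; 1.42 to 2.06). The top 3 cells held 81 of the WT UMIs and 118 of the *Vsir-/-* UMIs, so this interval is too narrow for a difference between cells. The lower genes, named after their values were seen, were the cytokine receptor genes *Il18r1* (−1.24) and *Il23r* (−1.21; −3.38 to 0.30). Among those with most UMIs, *Il7r*, which encodes the IL-7 receptor α chain, had a log2 ratio of −0.75 (−1.06 to −0.46), and the transcription factor gene *Maf* 0.46 (0.11 to 0.80). *Tmem176a* (−0.13), *Tmem176b* (0.26), *Cxcr6* (−0.19), *Ramp1* (−0.15), and *Ccr2* (−0.40) were within 2-fold.

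The counts of the next lists stand beside the same 12.6%. Of 16 genes of the type 1 γδ program, 4 passed 20 UMIs, with 0 higher and *Nkg7* lower past 2-fold (log2 ratio, −1.58). *Klrk1* (0.34), *Il2rb* (0.39), and *Ccl5* (−0.77) were within it. Among the Src family kinases, *Lck*, a kinase of T cell receptor signaling, had 44 UMIs in WT and 6 in *Vsir-/-* (log2 ratio, −2.11; −3.73 to −0.98), *Fyn* had 33 and 21 (0.02), and *Blk* is given above. Among the HMG box factors, *Tcf7* (75 and 20 UMIs, log2 ratio −1.22) and *Lef1* (18 and 2 UMIs, −2.22; −5.66 to −0.44) were lower in *Vsir-/-*, *Tox* was within 2-fold (−0.12), and *Sox13* was higher. Of the 20 tubule genes, 5 passed 20 UMIs and 4 were higher past 2-fold, *Miox*, *Gpx3*, *Umod*, and *Fxyd2*.

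Across the 29 units of cluster and library with at least 20 cells, the nearest genes of each member were taken by Pearson's r of log2(CPM + 1). These correlations describe units that share libraries and depth, and with 10 CPM added in place of 1, 1 of the 3 nearest genes was kept for *Trdc* and for *Tcrg-C2*. *Trdc* was most like *Tpst2* (0.88), *Mbd2* (0.80), and *Golm1* (0.78). *Tcrg-C1* was most like *Pdcd1*, which encodes PD-1 (0.88), *Actn2* (0.86), and *Acsbg1* (0.86). *Tcrg-C2* was most like the γ variable gene *Trgv2* (0.93), *Actn2* (0.82), and *Exoc2* (0.79). *Cd163l1* was most like *Abi3bp* (0.87), *Cryba4* (0.82), and *5830411N06Rik* (0.81). *Blk* was most like the chemokine receptor gene *Ccr6* (0.89), the B cell receptor gene *Cd79b* (0.83), and *Gm30211* (0.75). *Sox13* was most like the IL-1 receptor gene *Il1r1* (0.89), the potassium channel gene *Kcnk1* (0.89), and *2210011C24Rik* (0.86). Among the members, *Tcrg-C1* and *Tcrg-C2* were the closest pair (0.87), followed by *Trdc* and *Tcrg-C2* (0.82), and *Trdc* and *Sox13* were the farthest apart (0.25).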

How the data were processed

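Kidney cells of 1 WT and 1 *Vsir-/-* sample of mice with nephrotoxic nephritis were profiled by 3′ scRNA sequencing. The submitters' processing notes list Cell Ranger 3.1.0, R 4.0.3, Seurat 3.2.3, and genome build mm9. The authors kept cells with up to 10% mitochondrial transcripts, clustered them, and named the clusters, and the sources used here do not give whether doublets were removed, and none were removed here. The deposited counts are whole numbers of UMIs, not normalized. The deposited percent of mitochondrial UMIs per cell was used only for an alternative limit of 5%. The authors' embedding was not used.

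UMIs were summed by cluster and library (Python 3.11.15, numpy 2.4.6, pandas 2.3.3, and scipy 1.17.1). CPM were relative to every UMI counted in those cells. Intervals at 95% were Poisson for CPM, Clopper-Pearson for shares, and exact conditional for ratios. Ratios used 0.5 added UMIs, clusters with at least 20 cells in each library, and, except for the variable genes, genes with at least 20 UMIs, and a count of 0 was taken to allow 3. Bounds set against these 3 counts leave out the counting error of the other count. Cells were thinned to 1000 UMIs with a fixed seed, which left out 167 WT and 78 *Vsir-/-* cells. The γ constant transcripts were aligned with Biopython 1.88. The ratio step was tested on simulated data. No p-value was computed, since each genotype has 1 library. The 6 genes and all gene lists were chosen with earlier results of these data known. Named genes were the 6, their 3 nearest by correlation, all αβ constant, CD3, and γ constant genes, and from other lists up to 8 with most UMIs in γδ T cells. B cell and NK cell genes were named outside this rule, after their values were seen. A summed B cell marker list is not reported here.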

Additional observations from a re-analysis of the deposited data

How the results depend on the processing

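Of 48 alternative values of the 6 ratios in the γδ T cluster, 43 stayed inside the counting interval of the reported ratio. This count includes alternatives that could hardly move a ratio. Keeping cells with a T cell transcript, which every cell of the cluster had, left all 6 ratios unchanged, as did leaving out the shared barcodes. Subtracting the median of all genes changed them little, since that median was −0.0011. Alternatives restricted to cells with *Trdc*, without *Trac*, or without the shared barcodes were chosen after seeing the data. The *Trdc* log2 ratio was 1.04 as a mean over cells and 0.64 in cells with *Trdc*, where that of *Cd163l1* was 0.049. With cells thinned to 1000 UMIs, the *Blk* log2 ratio was −0.87, of the opposite sign, and that of *Sox13* was 2.64, and thinning by construction leaves fewer UMIs. *Blk* was then left in 21.7% of WT and 10.7% of *Vsir-/-* γδ T cells, and *Sox13* in 4.35% and 28.6%. The *Blk* interval spanned 0 before thinning, so its sign is not set. In the proliferating cluster, thinning left equal *Cd163l1* counts in the libraries. The log2 ratio of −0.66 then came only from the numbers of thinned cells, 116 in WT and 183 in *Vsir-/-*, and gives no direction. Of the 3 genes nearest each member, a pseudocount of 10 CPM kept 1 for *Trdc* and *Tcrg-C2* and 2 or 3 for the others, and a minimum of 200 UMIs kept 1 for *Cd163l1* and 3 for the others.

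The share of γδ T cells with both *Trdc* and a γ constant UMI was 63.0% in WT and 89.3% in *Vsir-/-*. It was 30.4% and 32.1% after thinning, 41.3% and 67.9% without *Trac*, and 0% in each library when *Trac*, *Trbc1*, and *Trbc2* all had to be at 0. In other lymphoid cells it was 2.78% in WT and 1.55% in *Vsir-/-*, then 0.848% and 0.400% after thinning, 0.171% and 0.0967% with no αβ constant UMI, and, in WT, 1.47% with at least 2 UMIs of each and 1.98% without *Trac*. The γδ T cluster was 1.11% of WT and 2.64% of *Vsir-/-* lymphoid cells, and, among lymphoid cells with a T cell transcript, 1.43% and 4.62%. No paired analysis was possible because each genotype has 1 library. Depth limits *Sox13* most, with 38 UMIs over both γδ T samples.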
